A study of Mus musculus with 6 samples.

Results

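The Mrgprb cluster is a run of related receptor genes and pseudogenes on mouse chromosome 7. The 7 members described here, Mrgprb1, Mrgprb2, Mrgprb3, Mrgprb5, Mrgprb8, Mrgprb9-ps and Mrgprb11-ps, were taken by name from a table of 54532 genes. They were chosen by their FPKM in the knockout and control columns of these same data, which earlier results had shown to be at or near 0 in Spry1 knockout epidermis, so their difference between genotypes is given as a description with no test. The samples were RNA from the epidermis of mouse back skin, 3 from controls (Spry1flox/flox) and 3 from knockouts (Spry1flox/flox K14-Cre-ERT2). Both groups carried the floxed Spry1 alleles, and both were given tamoxifen by gavage (0.1 mg per g of mouse, dissolved at 20 mg per ml in corn oil) on 4 occasions in each of 4 weeks. The mice's age is not given in the sources used here. The K14 promoter drives the inducible Cre in basal keratinocytes, so Spry1, whose protein dampens receptor tyrosine kinase signalling, is deleted there and in the cells they give rise to. Only the knockouts carried Cre, so an effect of Cre itself and the loss of Spry1 cannot be told apart. Whether the samples of a group came from separate animals is not stated, and p-values therefore measure only the spread between these samples.

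Mrgpr genes encode G protein-coupled receptors that are best known from sensory neurons of itch and pain and from mast cells. Mrgprb2 is the mouse counterpart of human MRGPRX2, the mast cell receptor through which cationic peptides such as substance P, antimicrobial peptides and many drugs release mast cell granules without IgE. It signals through Gq proteins, phospholipase C and the release of calcium from internal stores. Genes whose name ends in -ps are pseudogenes, copies whose reading frame is broken.

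The levels are FPKM, reads per kilobase of exon scaled to a total of reads for the library. The underlying whole reads could be recovered from them. Each library held 18383323 to 21024716 recovered reads. The totals that the FPKM scaling implies were not the same. They were 18226775, 18286587 and 19491036 in Control 1 to 3, where 18383323, 18511157 and 18949499 were recovered. In Spry1_KO 1 to 3 they were 20095122, 17353200 and 16451721, where 21024716, 19125754 and 18670248 were recovered. Every knockout total lay below the recovered reads, by more than in any control. Spry1 itself measured 25.8, 28.2 and 34.4 FPKM in Control 1 to 3 against 1.06, 1.49 and 1.28 FPKM in Spry1_KO 1 to 3, a log2 change of -3.74 ± 0.13 (SE; limma, adjusted p = 7.21e-06, n = 3 per group). Keratinocyte genes were abundant in every library, with Krt14 at 2706 ± 576 FPKM in controls and 11064 ± 1743 FPKM in knockouts (SD, n = 3 each). Control 3 stood apart from the other controls, with a chi-square per gene of 54.6 and 61.4 against them where they differed from each other by 11.02. The genotype moved much of the transcriptome. Of 12629 genes tested, 54.0% passed an adjusted p of 0.05 (limma). Those higher in the knockouts made up 29.6% of all genes tested, and those lower 24.4%. Totals of FPKM differed too, at 341508 to 385073 in controls and 413426 to 482950 in knockouts. When each library was scaled to the same total, as in TPM, the median change of all genes moved from 0.03 to -0.25 (log2), and the calls went from 3736 higher and 3079 lower to 2248 higher and 5200 lower. On recovered reads (limma-voom) they were 2914 higher and 3802 lower.

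A block of 4 neighbouring members carried nearly all of the cluster's reads, and their sequences are shown first because near-identical copies could exchange reads. In order along chromosome 7 (GRCm38) these were Mrgprb2, Mrgprb9-ps, Mrgprb3 and Mrgprb11-ps. The stretch below is the 60-base part of their GENCODE M21 transcripts that all of them share best, with 47 positions identical in all of the 4. Each is written 5′ to 3′ on the gene's own strand, and capitals mark the bases that differ from Mrgprb3. The stretch lies inside the longest reading frame of Mrgprb2 and of Mrgprb3. It is at chr7:48552514-48552573 (minus strand) in Mrgprb2, chr7:48591152-48591211 (plus strand) in Mrgprb9-ps, chr7:48643373-48643432 (minus strand) in Mrgprb3 and chr7:48685162-48685221 (minus strand) in Mrgprb11-ps.
Mrgprb2: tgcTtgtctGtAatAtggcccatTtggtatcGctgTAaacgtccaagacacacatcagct
Mrgprb9-ps: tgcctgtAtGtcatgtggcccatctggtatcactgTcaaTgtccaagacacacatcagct
Mrgprb3: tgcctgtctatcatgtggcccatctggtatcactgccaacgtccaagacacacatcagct
Mrgprb11-ps: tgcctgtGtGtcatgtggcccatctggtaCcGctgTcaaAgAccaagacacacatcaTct
Even in this best stretch Mrgprb2 and Mrgprb11-ps each differed from Mrgprb3 at 8 bases, and Mrgprb9-ps at 4. Over whole transcripts the 6 pairs among these genes were 72.0% to 76.5% identical in local alignments (median 74.7%), against 64.4% to 73.5% (median 68.2%) for the other 15 pairs of members. Mrgprb3 and Mrgprb11-ps were the most alike, at 76.5%, followed by Mrgprb2 and Mrgprb11-ps, at 76.2%. The longest run of identical bases in any of the 6 pairs was 46, between Mrgprb9-ps and Mrgprb3. No member shared a 100-base window with a transcript of any other annotated gene. With 50-base windows, Mrgprb5 shared 0.810% of its windows with Mrgprb4, Mrgprb8 shared 0.559% with Mrgprb13, and the 4 neighbours shared none.

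**Figure D1:**
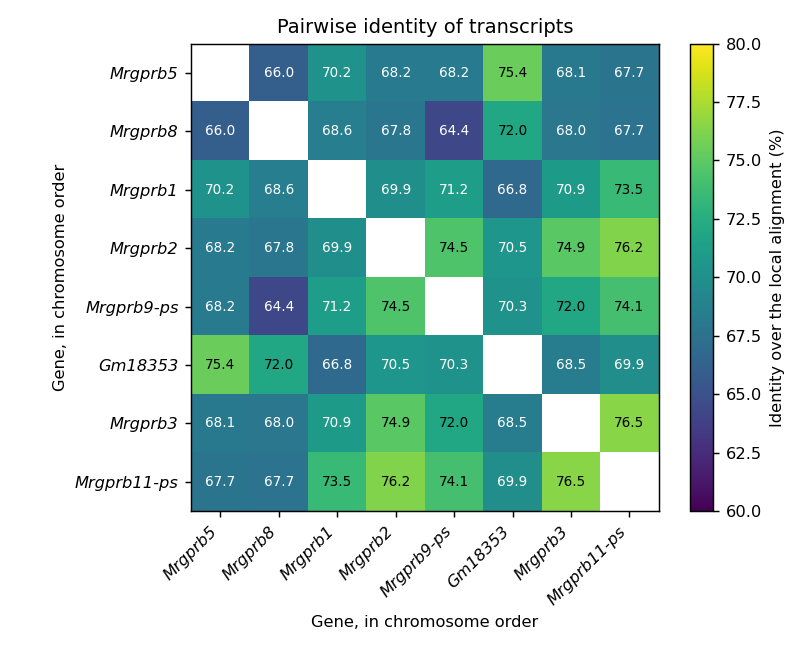
Percent identity of each pair of transcripts over their local alignment, for the 7 members and Gm18353, a pseudogene among them, in chromosome order; colour and printed number give the same value. The pairs among Mrgprb2, Mrgprb9-ps, Mrgprb3 and Mrgprb11-ps lie between 72.0% and 76.5%.

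Reading frames separated the genes from the pseudogenes. The longest frame from a start codon to a stop codon was 338 codons in Mrgprb2, 312 in Mrgprb3, 322 in Mrgprb5, 330 in Mrgprb8 and 350 in Mrgprb1. In Mrgprb9-ps it was 73 codons and in Mrgprb11-ps 43 codons. The transcript with the highest level in the cluster, Mrgprb11-ps, thus had the shortest frame of the members.

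Mrgprb2, the mast cell receptor, lies on the minus strand at chr7:48550965-48558086 and has 2 exons. It measured 8.77, 7.06 and 4.37 FPKM in the controls (332, 268 and 177 reads) and was listed at 0 in all 3 knockouts. Its control mean was 6.73 ± 2.22 FPKM (SD, n = 3), at least 249-fold higher than a floor of 3 reads over the whole knockout group would give. The groups did not overlap, and Control 3 was the lowest control.

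Mrgprb3, a single-exon protein-coding gene at chr7:48642803-48643811 (minus strand), measured 33.4, 31.1 and 24.0 FPKM in the controls (614, 574 and 472 reads). The knockouts held 1, 1 and 0 reads, or 0.0493, 0.0571 and 0 FPKM. The read ratio of controls to knockouts, scaled by the totals that the FPKM imply, was 799. The exact 95% interval, 221 to 6602, covers counting error only. Its control mean was 29.5 ± 4.90 FPKM (SD, n = 3), and every control lay far above every knockout.

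The pseudogene Mrgprb9-ps (chr7:48590802-48591693, plus strand) measured 44.3, 38.4 and 28.1 FPKM in the controls (721, 627 and 489 reads) and had no read in any knockout. Its control mean of 37.0 ± 8.21 FPKM (SD, n = 3) was at least 589-fold above the floor of 3 reads over the knockout group. It is the only one of the 4 neighbours on the plus strand. Mrgprb11-ps (chr7:48684621-48685614, minus strand) measured 138, 126 and 110 FPKM in the controls (2505, 2287 and 2129 reads) and held 0, 1 and 0 reads in the knockouts. Its control mean was 125 ± 14.2 FPKM (SD, n = 3). The read ratio was 6661, with an exact 95% interval of 1195 to 263131. Neither pseudogene's groups overlapped, and the single read in the Spry1_KO 2 library was the only one that either gave in the knockouts.

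The remaining 3 members were near 0 in both groups. Mrgprb5 (chr7:48167983-48169019, minus strand) gave 1 read, in Control 1 (0.0529 FPKM). Mrgprb8 (chr7:48388526-48389648, plus strand) gave none in any library. Mrgprb1 (chr7:48444113-48456342, minus strand) gave 3 reads in Spry1_KO 3 (0.0436 FPKM) and none elsewhere. All of these counts are at or under the floor of 3 reads, so a difference between genotypes was not detectable at this depth. The members near 0 are thus all on one side of the cluster and the expressed ones all on the other.

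**Figure D2:**
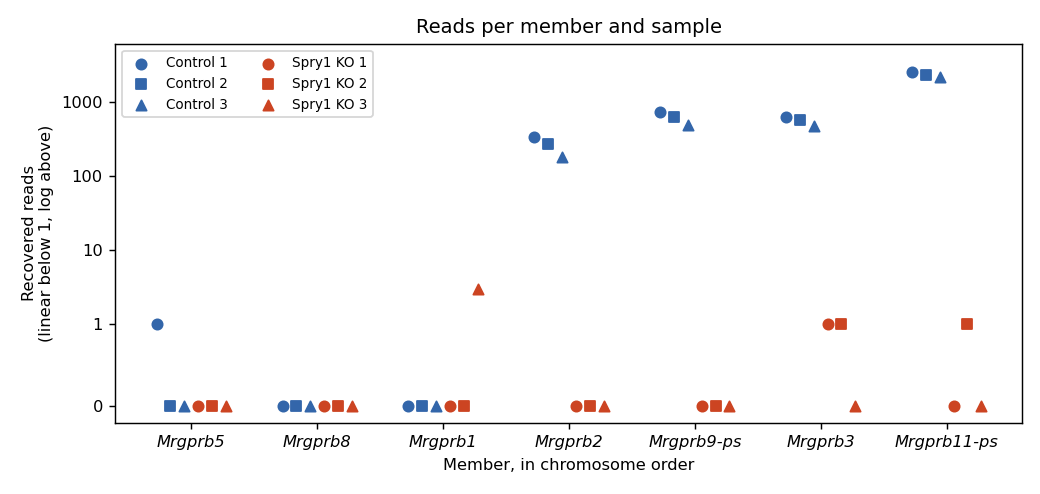
Recovered reads per member and sample, members in chromosome order; blue symbols are the controls and red symbols the knockouts, and the axis is linear below 1 and logarithmic above. The controls of Mrgprb2, Mrgprb9-ps, Mrgprb3 and Mrgprb11-ps lie between 177 and 2505 reads, and no knockout exceeds 3 reads for any member.

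On the log2(FPKM + 1) scale of the fit, the difference of knockouts minus controls was -2.91 for Mrgprb2, -4.87 for Mrgprb3, -5.22 for Mrgprb9-ps and -6.94 for Mrgprb11-ps, with standard errors of 0.22, 0.13, 0.16 and 0.10. These differences follow the level in the controls, since with the knockouts at or near 0 the pseudocount of 1 sets the lower end. Only these 4 members passed the filter, a mean of 1 FPKM over the 6 samples, and they passed through the control group alone, so that they had to differ. Among all genes tested, the groups did not overlap for 64.2%, with the controls above for 29.4%, and nothing is read from the members' own count.

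Summed over the 7 members, the controls stood at 225, 202 and 166 FPKM, and the knockouts at 0.0493, 0.115 and 0.0436 FPKM. In reads these were 4173, 3756 and 3267 against 1, 2 and 3. The knockout mean was 0.0350% of the control mean, and the difference in log2 of the sum plus 1 was -7.53, or -7.65 without Control 3. In a bulk sample of this kind, fewer cells that make a transcript and less of it per cell cannot be told apart. The DNA of the locus was not compared between the groups either, so whether the knockouts carry a different strain's sequence or a deletion there was not tested.

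The order of the levels was the same in the 3 controls, with Mrgprb11-ps highest, then Mrgprb9-ps, Mrgprb3 and Mrgprb2. Mrgprb11-ps made up 61.5%, 62.2% and 66.0% of the summed FPKM and Mrgprb2 3.90%, 3.49% and 2.63%. The ranges of Mrgprb9-ps (28.1 to 44.3 FPKM) and Mrgprb3 (24.0 to 33.4 FPKM) overlapped across controls, so that across controls these neighbours in the order did not differ beyond their spread, although Mrgprb9-ps was above Mrgprb3 within each control. Ranges of the other neighbours in the order did not overlap. By control mean, Mrgprb11-ps ranked 349 of the 54532 genes and second among 2623 unprocessed pseudogenes. Mrgprb9-ps ranked 1286, Mrgprb3 1645 and Mrgprb2 6327.

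The controls were not alike. Control 1 was the highest and Control 3 the lowest for all 4 members, and the gap was widest for Mrgprb2, whose highest control was 2.01 times the lowest. The same ratio was 1.58 for Mrgprb9-ps, 1.39 for Mrgprb3 and 1.26 for Mrgprb11-ps. The coefficients of variation were 32.9%, 22.2%, 16.6% and 11.4% in that order, against a median of 12.03% over 12057 tested genes at a control mean of 1 FPKM or more. Control 3 also had the lowest total FPKM. After scaling to TPM the ratios were 1.78, 1.40, 1.23 and 1.12, and Control 3 was still the lowest for each.

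The genes around the members were next examined, since transcription running through the cluster could give several members reads at once. Mrgprb2, Mrgprb9-ps, Mrgprb3 and Mrgprb11-ps span 134.65 kb, and the annotation places 1 other gene among them. This is Gm18353, an unprocessed pseudogene on the minus strand at chr7:48609549-48610332, 17.855 kb from Mrgprb9-ps and 32.47 kb from Mrgprb3. It gave 1, 1 and 0 reads in the controls and none in the knockouts, while both of its neighbours gave 472 to 721 reads in each control. Its transcript was 68.5% to 70.5% identical to those of the 4 expressed members, and it shared no 50-base window with another gene. The gaps between the other neighbours were 32.715 kb from Mrgprb2 to Mrgprb9-ps and 40.809 kb from Mrgprb3 to Mrgprb11-ps. Reads between genes or in introns are not part of the table, and whether the authors' counting used strand is not given in the sources used here. Transcription through the gaps was therefore not tested.

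Outside these genes the signal stopped on both sides. Mrgprx2, a related receptor gene 51.643 kb before Mrgprb2, gave 0 reads in every library. From Mrgprb5 to Mrgprb2, all 7 other annotated genes gave 0 reads. On the other side, Gm45086, 38.766 kb beyond Mrgprb11-ps, gave a single read, in Control 1.

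**Figure D3:**
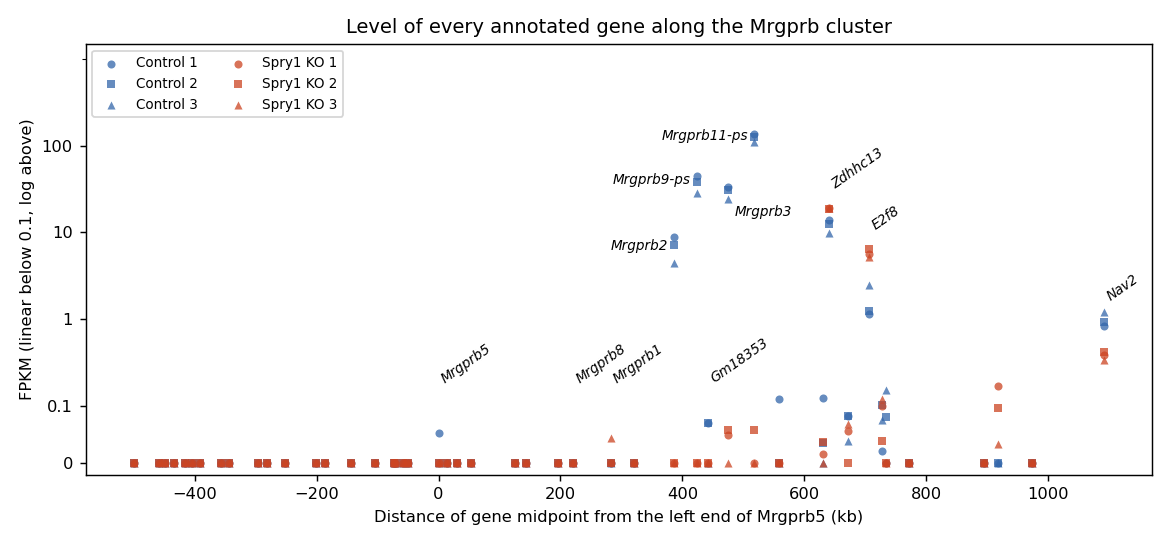
FPKM of the 7 members and of every other annotated gene within 500 kb, by the distance of the gene's midpoint from the left end of Mrgprb5; blue symbols are the controls, red the knockouts, and the axis is linear below 0.1 and logarithmic above. Where all samples are at 0 the symbols cover each other. Controls reach 4.37 to 138 FPKM at Mrgprb2, Mrgprb9-ps, Mrgprb3 and Mrgprb11-ps, with Gm18353 near 0 among them.

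Within 500 kb of the members the table held 40 other genes. Of these, 30 had no read in any library, 8 had reads but stayed under the filter, and 2 were tested. Both were higher in the knockouts by limma, where 54.0% of all tested genes passed. Zdhhc13, a palmitoyltransferase gene 103.389 kb beyond Mrgprb11-ps, measured 14.0, 12.5 and 9.81 FPKM in controls and 19.1, 18.6 and 18.9 FPKM in knockouts. It rose by 0.61 ± 0.13 in log2 (SE, limma, adjusted p = 0.00624). E2f8, a transcription factor gene of the cell cycle at 180.815 kb, measured 1.14, 1.25 and 2.44 FPKM in controls and 5.64, 6.47 and 5.18 FPKM in knockouts, a rise of 1.40 ± 0.19 (SE, limma, adjusted p = 0.00116). Both thus moved in the opposite direction to the members. Nav2, a gene of axon guidance at 223.102 kb, lay under the filter at 0.836, 0.932 and 1.21 FPKM in controls and 0.384, 0.415 and 0.339 FPKM in knockouts. With no filter it passed as lower, with a log2 change of -0.53 (limma, adjusted p = 0.0152).

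On the far side of Mrgprb5 no gene with a testable level lay within a megabase. Tmem86a, the nearest at 1113.206 kb, went from 4.39 ± 1.49 to 9.76 ± 1.03 FPKM (SD, n = 3 each; log2 change 1.03 ± 0.21 SE, limma, adjusted p = 0.00537). Spty2d1, at 1159.572 kb, was the nearest that did not pass, at 8.03 ± 1.41 against 8.01 ± 0.422 FPKM (SD, n = 3 each; limma, adjusted p = 0.960). Beyond the other end, Htatip2 at 1073.501 kb fell by 0.24 ± 0.07 in log2 (SE, limma, adjusted p = 0.0280). That call was lost when any one of 5 samples was left out, all but Control 3, with adjusted p between 0.0551 and 0.0957.

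The rest of the receptor family was almost silent in both genotypes. The table held 26 other Mrgpr genes and pseudogenes, 25 of them on chromosome 7. Of these, 19 had no read in any library, including all 4 other Mrgprb entries, Mrgprb4, Mrgprb13, Mrgprb7-ps and Mrgprb12-ps. The silent ones also included Mrgpra3 and Mrgprd, receptors of sensory neurons that reach the skin. Mrgprf measured 0.669, 0.0741 and 1.02 FPKM in controls and 0.674, 0.911 and 0.659 FPKM in knockouts, and Mrgpre 0.423, 0.480 and 0.246 against 0.291, 0.199 and 0.533 FPKM. The groups overlapped for both. Mrgpra9, Mrgpra6, Mrgprx3-ps, Mrgpra2b and Mrgpra2a gave 1 to 6 reads each over all libraries. None of the 26 reached the filter, so none was tested.

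Mrgprb2 is a mast cell receptor, and the mast cell genes were therefore read beside it. Their values differed from gene to gene. The 7 defining genes all lay under the filter and were not tested. Summed over these genes (Mcpt4, Cma1, Tpsb2, Cpa3, Fcer1a, Ms4a2 and Tpsab1, which encode granule proteases and chains of the high-affinity IgE receptor), the controls held 8, 16 and 18 reads and the knockouts 52, 39 and 162. In FPKM the sums were 0.337, 0.718 and 0.838 in controls and 1.89, 1.77 and 6.92 in knockouts, with no overlap. Fcer1a, Ms4a2 and Tpsab1 were listed at 0 in all controls, and Tpsab1 in all libraries. The groups overlapped for Mcpt4 and Tpsb2, although 6 of the 7 genes had a higher mean in the knockouts. Mrgprb2 reads in the controls (332, 268 and 177) thus stood beside 8 to 18 reads of these genes, and its 0 reads in the knockouts beside 39 to 162. The cell type that holds the control Mrgprb2 reads was not tested.

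**Figure D4:**
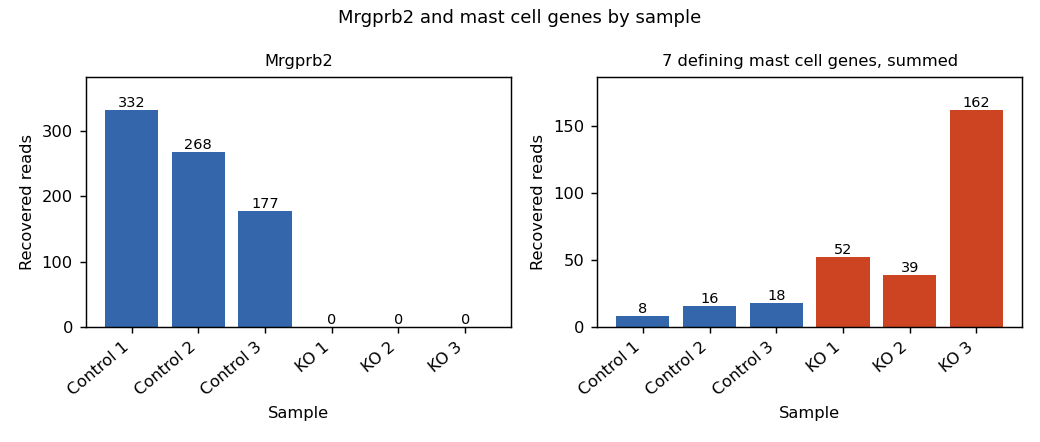
Recovered reads of Mrgprb2 (left) and of 7 defining mast cell genes summed (right), as bars per sample with the read number above each; blue bars are controls, red bars knockouts. Mrgprb2 stands at 177 to 332 reads in controls and 0 in knockouts, while the mast cell sum goes from 8 to 18 reads to 39 to 162.

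On the full list of 20 mast cell genes, 9 had a testable level, 6 of which rose, 2 fell and 1 did not pass, where 29.6% of all genes tested rose and 24.4% fell. The median log2 change, which is that of Kit, was 1.52 against 0.03 for all genes tested. Hdc, Kit, Cma2, Mcpt1 and Mcpt2 averaged under 1 FPKM in the controls. They passed the filter through the knockouts alone, so the filter set their direction. Adora3 passed through the controls alone. Nothing is therefore read from this list's count or median. Hdc, the enzyme that makes histamine, rose from 0.0566 ± 0.0285 to 2.70 ± 0.469 FPKM (SD, n = 3 each; log2 change 1.80 ± 0.14 SE, limma, adjusted p = 0.000126). Kit, the stem cell factor receptor that mast cells share with melanocytes, rose from 0.489 ± 0.103 to 3.27 ± 0.464 FPKM (limma, adjusted p = 0.000171). The chymase gene Cma2 was at 0 in all controls and at 6.34, 3.99 and 10.6 FPKM in the knockouts (limma, adjusted p = 0.000280). Srgn also rose, as did the protease genes Mcpt1 and Mcpt2, which were at 0 in all controls. In Spry1_KO 1 to 3, Mcpt1 measured 1.77, 0.682 and 11.3 FPKM and Mcpt2 0.938, 0.543 and 4.70 FPKM. Without Spry1_KO 3 both fell under the filter and were not tested. The calls of Mcpt1 and Mcpt2 were also lost when any one control or Spry1_KO 1 was left out, with adjusted p of 0.0582 to 0.0966 by limma, and with no filter (0.0977 and 0.0884). Hpgds, the haematopoietic prostaglandin D synthase, fell from 15.8, 21.7 and 25.3 to 6.96, 6.26 and 7.63 FPKM (limma, adjusted p = 0.000559), and the adenosine receptor gene Adora3 from 2.74 ± 1.03 to 0.274 ± 0.0393 FPKM. Rab27b did not pass (limma, adjusted p = 0.715).

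Known or proposed ligands of Mrgpr receptors were examined next. Of 14 genes on this list 6 had a testable level, of which 5 rose and 1 fell (29.6% and 24.4% of all genes tested), with a median log2 change of 1.67. Defb3, Defb4 and Penk averaged under 1 FPKM in the controls and passed the filter through the knockouts alone. Npff passed through the controls alone. The filter thus set the direction of these genes, and nothing is read from the list's count or median. The β-defensin genes, which encode cationic antimicrobial peptides, made up 4 of the 5 that rose. Defb3 went from 0.200, 0.199 and 0 FPKM in controls to 3.44, 10.9 and 6.63 FPKM in knockouts (log2 change 2.71 ± 0.33 SE, limma, adjusted p = 0.000717). Defb14 rose from 2.59 ± 2.18 to 27.2 ± 10.7 FPKM and Defb1, the most abundant, from 84.1 ± 20.6 to 153 ± 26.5 FPKM (SD, n = 3 each; limma, adjusted p = 0.00304 and 0.0117). Defb4 was at 0 in the controls and at 1.42, 10.9 and 1.61 FPKM in the knockouts. Its call was lost without Control 1 or Control 2, with adjusted p of 0.0552 and 0.0521 by limma, and with no filter (0.0538). Without Spry1_KO 2, its highest sample, Defb4 fell under the filter and was not tested.

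Penk, the precursor of enkephalins and of a peptide that activates itch receptors of this family, rose from 0.658 ± 0.119 to 3.10 ± 1.24 FPKM (SD, n = 3 each; limma, adjusted p = 0.00285). Npff fell from 1.80 ± 0.630 to 0.608 ± 0.250 FPKM (limma, adjusted p = 0.0161), a call lost without Spry1_KO 3 (adjusted p = 0.0551). Without Control 3 it fell under the filter and was not tested. Adm, the adrenomedullin precursor, stood under the filter at 0.652 ± 0.111 against 0.191 ± 0.143 FPKM. Tac1, which encodes substance P, gave a level in 1 knockout only, of 0.0586 FPKM. Vip and Sst were listed at 0 in every library.

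Of 13 genes of the Gq pathway downstream of the receptor, 9 had a testable level, of which 1 rose, 5 fell and 3 did not pass, with a median log2 change of -0.37. The 6 calls stand beside a background of 54.0% of all genes tested, so the list is not set apart by its count. Gna14, a Gq family alpha subunit, fell from 9.62 ± 0.797 to 1.52 ± 0.218 FPKM (log2 change -2.08 ± 0.10 SE, limma, adjusted p = 2.64e-05, n = 3 per group). Arrb1, the beta-arrestin that desensitizes receptors, fell from 8.91 ± 1.26 to 2.89 ± 0.397 FPKM (limma, adjusted p = 0.000235) and the calcium release channel gene Itpr3 from 72.9 ± 16.1 to 34.8 ± 1.84 FPKM (adjusted p = 0.00155, limma). Gna11, the closest relative of Gnaq, rose from 12.3 ± 0.333 to 19.2 ± 1.14 FPKM (limma, adjusted p = 0.000777). These genes are expressed in many cell types, and their levels in the cells that hold the receptor transcripts were not measured.

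Markers of other cells that back epidermis holds moved with the members, and their part in the members' difference was not tested. Among all genes tested 24.4% fell, with a median log2 change of 0.03. Of 8 markers of dendritic epidermal T cells, the resident γδ T cells of mouse epidermis, 7 fell and 1 did not pass. Their median log2 change was -2.33. Their summed level was 160 to 219 FPKM in controls and 19.4 to 32.8 FPKM in knockouts, so that 14.6% of the control mean was left. The log2 change was -3.13 ± 0.14 for Trdv4 and -4.29 ± 0.24 for the Vγ gene Tcrg-V5 (SE, limma, adjusted p = 1.68e-05 and 3.82e-05). Of 7 Langerhans cell genes 6 fell and 1 did not pass, with a median of -1.51. Their sum went from 1323 to 2177 FPKM down to 427 to 668 FPKM, or 33.2% of the control mean, and Cd207, the langerin gene, fell from 47.5 ± 14.9 to 9.06 ± 2.78 FPKM (SD, n = 3 each; limma, adjusted p = 0.000609).

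Skeletal muscle genes mark underlying tissue carried over with the skin. They summed to 16.1 to 59.3 FPKM in controls and 3.89 to 5.73 FPKM in knockouts. All 5 tested were lower, with a median of -1.64, where 24.4% of all genes tested fell. Acta1, Tnnt3, Atp2a1 and Ckm averaged under 1 FPKM in the knockouts. They passed the filter through the controls alone, so the filter set their direction. Without Control 1, Atp2a1 and Ckm fell under the filter, as did Ckm without Control 2. The 4 tested fibroblast genes also passed the filter through the controls alone. Of them 2 fell (median -0.90), with list sums of 5.50 to 13.0 against 1.71 to 5.79 FPKM, which overlap. Both of these calls were lost when Spry1_KO 1 was left out, with adjusted p of 0.0545 for Col1a2 and 0.0704 for Col3a1 by limma. That of Col3a1 was also lost without Control 1, Control 3 or Spry1_KO 2 (0.0506 to 0.0645) and with no filter (0.0532). Without Control 3, Col1a2 fell under the filter. Of 4 tested hair follicle genes, Krt15, a keratin of follicle stem cells and basal cells, fell by 2.10 ± 0.18 in log2 (SE, limma, adjusted p = 0.000175) and 3 did not pass (median 0.15). Krt15 held nearly all of that list's sum, which was 2941 to 3776 FPKM in controls and 689 to 964 FPKM in knockouts.

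Other lists did not share this direction. All 6 melanocyte genes rose, where 29.6% of all genes tested rose and 24.4% fell. Their median log2 change was 3.62, against 0.03 for all genes tested. Their sum was 8.52 to 11.6 FPKM in controls and 211 to 215 FPKM in knockouts. Of these, Mlana, Sox10 and Tyr passed the filter through the knockouts alone, while Pmel, Tyrp1 and Dct averaged over 1 FPKM in both groups. The 7 keratinocyte genes went both ways, as 4 rose, 2 fell and 1 did not pass, with a median of 0.65. Sensory neuron genes, which would mark the other cell type known for these receptors, were scarce. Only 2 of 12 had a testable level, and Calca, the precursor of the neuropeptide CGRP, rose from 0.387 ± 0.301 to 1.87 ± 0.756 FPKM (SD, n = 3 each; limma, adjusted p = 0.0103). Calca passed the filter through the knockouts alone, and fell under it without Spry1_KO 1. Nefl and Scn9a were listed at 0 in all libraries.

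**Figure D5:**
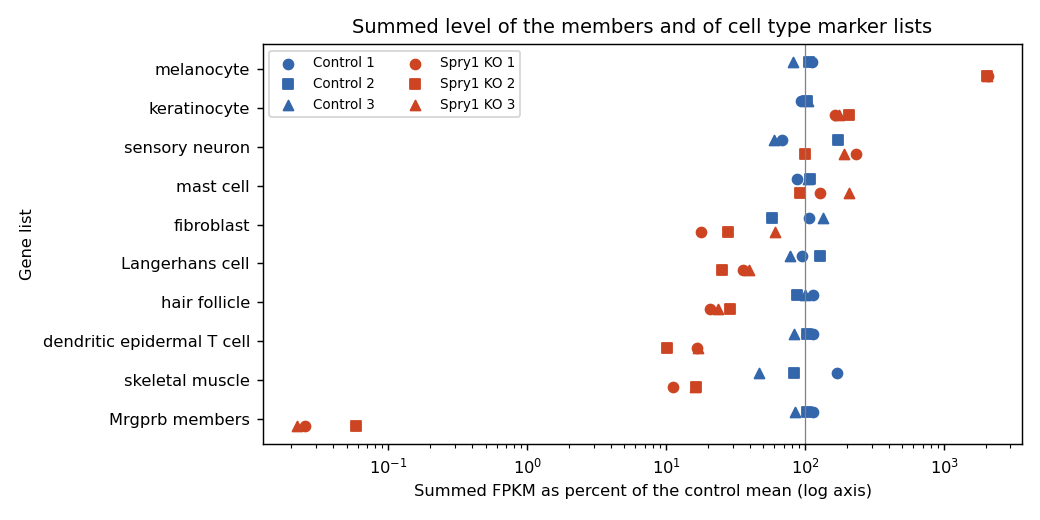
Summed FPKM of the 7 Mrgprb members and of each cell type list per sample, as a percent of the control mean on a log axis; blue symbols are controls and red symbols knockouts. The members' knockout mean is 0.0350% of the control mean, against 14.6% for both the dendritic epidermal T cell and the skeletal muscle list, the lowest of the marker lists.

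The promoter of Mrgprb2 is shown because this gene is the one coding member with both a control level and an entry in the promoter table used (RefSeq, GRCm38.p6). The 160 bases at chr7:48558077-48558236 are written 5′ to 3′ on the minus strand, from 150 bases before the start site at position 48558086 through the first 10 transcribed bases, and capitals mark both matches to TGANTCA, the motif bound by AP-1 factors.
Mrgprb2 promoter: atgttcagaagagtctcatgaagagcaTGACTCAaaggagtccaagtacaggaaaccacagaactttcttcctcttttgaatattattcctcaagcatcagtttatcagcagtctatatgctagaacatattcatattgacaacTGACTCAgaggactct
The matches begin 123 and 6 bases before the start site. The motif was searched on both strands of the full window, 250 bases before to 50 after each start, and was chosen after this sequence had been seen. At least 1 match was present in 7.81% of 32851 promoters and at least 2 in 0.460%. Mrgprb1, which had no control reads, holds 1 match, and Mrgprb5, Mrgprb8, Mrgprb4 and Mrgprb13 hold none. The other motifs searched were TATAAA (13.6% of promoters), AGATAA (11.2%), a form of the GATA motif, and the E-box CANNTG (72.3%). These may overlap each other. Mrgprb2 held none of the first 2 and 1 E-box. Other forms of the GATA motif were not searched. A match is a run of letters and does not show binding.

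Genes whose pattern was most like the summed cluster were sought among 11292 named genes by Pearson's r on the log2 scale over the 6 samples. The nearest were Avil (r = 0.9999), Hsf2 (0.9994), Cfap57 (0.9994), Oas1c (0.9993) and Sema3d (0.9992), on chromosomes 10, 10, 4, 5 and 5. Avil, which encodes an actin-binding protein, went from 7.13 ± 0.467 to 0.425 ± 0.0322 FPKM, and Sema3d, a secreted guidance protein, from 31.2 ± 0.481 to 0.136 ± 0.0718 FPKM (SD, n = 3 each). The points share their libraries and fall into 2 groups set by genotype, and 248 genes had r above 0.99, so these names mark a split between genotypes that many genes show.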

How the data were processed

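Levels were the FPKM values the authors deposited for 6 libraries; per the submitters' processing notes, these involved HISAT2 2.0.5, featureCounts 1.5.0-p3 and builds GRCm38 and mm10. Neither the strand setting nor the annotation release was given in the sources used here. Gene identifiers were matched to GENCODE M21 (54495 of 54532), and 27 gene names turned into dates by a spreadsheet were replaced. Low values were whole multiples of 1 read, so reads were recovered, with 97.5% to 97.9% of values whole within 0.1 read (20.0% by chance). Groups were compared with limma 3.58.1 (R 4.3.3) on log2(FPKM + 1) over all genes that averaged 1 FPKM or more across the 6 samples, with Benjamini-Hochberg adjustment; the script was tested on simulated data. Transcripts were aligned with Biopython 1.88. Intervals and floors cover counting error only; whether molecular identifiers were used is not stated.

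The members and all lists were chosen with earlier results of these data known. Named genes were Spry1, the members, other Mrgpr genes, tested neighbours, up to 4 passing genes of lowest p per list, and the 5 genes most correlated with the summed members; Nav2, Srgn, Mcpt1, Mcpt2, Adora3, Rab27b, Defb4, Npff, Adm, Tac1, Vip, Sst, Nefl and Scn9a were added after their values were seen. Alternatives were another pseudocount, no filter, TPM and median-ratio scaling, limma-voom on recovered reads, a replicate block, other windows and leaving out samples.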

Additional observations from a re-analysis of the deposited data

How the results depend on the processing

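The difference of the summed members was -7.53 on the log2(FPKM + 1) scale. It was -10.21 with a pseudocount of 0.1, -8.85 with TPM scaling and -10.69 with limma-voom on recovered reads, each setting where the near-0 knockouts end. Leaving out one sample at a time gave -7.65 to -7.43. The largest share of any member's windows found in another gene was 0 at 100 bases and 0.810% at 50. Genes called numbered 6815, 5834 with the replicate block, 7709 with no filter, 6707 without Control 3 and Spry1_KO 2, and 5609 to 7290 leaving out one sample at a time. Counts of calls for the neighbours, the mast cell, ligand and Gq lists, and the other cell type lists together stayed within 1.5 times in each alternative run. Numbers were not used as pairs: deviations of same-numbered samples correlated at -0.098, -0.111 and -0.125. Of the neighbours and list genes named with a call, the block ended those of Htatip2 (adjusted p = 0.0893), Npff (0.0539) and the keratinocyte gene Krt5 (0.0697) by limma. The Krt5 call was also lost with no filter (limma, adjusted p = 0.339) and without Control 3 and Spry1_KO 2 together (0.0623). With 3 samples a group, counts under about 3 reads limit any statement on Mrgprb1, Mrgprb5, Mrgprb8 and Gm18353.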

Other observations

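Of 10442 genes with at least 100 reads in each control, 8 had at most 3 over all knockouts, limits set after the values were seen. Among the 8 were Mrgprb2, Mrgprb9-ps, Mrgprb3 and Mrgprb11-ps, which were chosen for this pattern. The others were F830045P16Rik and Gm13667 on chromosome 2, Gcsam on chromosome 16 and Npy1r on chromosome 8. F830045P16Rik went from 25.4 FPKM and Gm13667 from 10.9 FPKM in controls to 0 in all knockouts. Npy1r, a receptor for neuropeptide Y, went from 1.98 FPKM to 0, and Gcsam from 3.23 to 0.00484 FPKM.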
